A study of Mus musculus with 6 samples.

Results

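The genes described here encode structural proteins of the sperm flagellum and its axoneme, the microtubule core of the tail. They comprise 41 named genes, each sought by current symbol or synonym among the RefSeq transcript accessions of the array's mRNA probes. A probe was found for 34 of the 41, out of 19053 genes named by the mRNA probes. Dnah1, Dnah3, Dnah6, Dnah17, Rsph4a, Tekt5 and Fscb had no matching probe and are not analysed here. Whole testes of male C57/BL6 mice were compared at 2 ages, 6 day postpartum (called neonatal) and 8 week postpartum (called adult). Each age had 3 biological replicates, each on a 1-colour (Cy3) lncRNA and mRNA array of its own. According to the methods, a replicate stands for a group of mice, with more mice per group at the neonatal age, and how their tissue was combined is not stated. Levels are given as normalized log2 signal, which is log2 of a probe's signal relative to its array's 75th percentile, so that a difference of 1 is a 2-fold change. The lowest value is the floor of -7.22, set from a signal of 5 on the dimmest array, and values at the floor have no order among themselves.

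A flagellum bends because dynein motors, held in outer and inner arms, walk along the neighbouring doublet microtubules, while radial spokes and a central pair of microtubules coordinate them. Tektins run along the doublets, outer dense fibres and a fibrous sheath surround the axoneme, and the midpiece carries a sheath of mitochondria that ends at a septin ring, the annulus. In the testis these parts are built in spermatids, the haploid cells that follow meiosis, and the same axonemal machinery is shared in part with motile cilia of other tissues.

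Adult and neonatal testis were compared with limma, a linear model that pools the spread over all probes, with the replicate number as a block. Spots that the scanner software marked as outliers were left out, and testing required both arrays of 2 replicates or more. A gene counted as called from a 5-fold change upwards, with its adjusted p (Benjamini-Hochberg, over all lncRNA and mRNA probes tested) at most 0.05. Where a gene had several probes, the probe with the highest mean signal stands for it. All 34 members passed the filter on low values, which asks for 1 array or more well above background, and all 34 were well above background on the 3 adult arrays. On the neonatal arrays, 23 were well above background on all 3, 3 on some and 8 on none. Because members could pass through the adult arrays alone, their counts describe the members and support nothing further.

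Of the 34 members, 22 could be tested by their main probe, and 19 of these were called higher in adult testis by limma. Over all mRNA probes, 12.6% of those tested were called higher and 13.7% were called lower. No member was called lower (0 of 22). At an unadjusted p of at most 0.05 and with no limit on the fold change, 2 members had a negative difference by limma and 1 by the methods' t-test. The main probes of the other 12 members could not be tested because outlier-flagged spots broke their pairs of arrays, though other probes of 1 of them, Cabyr, could. With these spots kept, all 34 could be tested and 31 were called higher and 0 lower, against 12.8% and 15.4% of the mRNA probes. All adult arrays lay above all neonatal arrays for 32 of the 34 members, and for 26.9% of the mRNA probes well above background on an array. The median log2 difference (adult minus neonatal) was 5.52 over the 22 tested members and -0.40 over the 15121 mRNA probes tested, and counting the 7 members that have only a lower bound at that bound left the median at 5.52. Without replicate 1 or replicate 2, the median was 3.55 over 8 members and 2.70 over 7. The mRNA median moved to -0.75 after quantile normalization, -0.65 with a shift to the array median, 0.04 after the normexp background correction and -0.84 on the log2 values of the authors. The share of called mRNA probes that were higher in adult testis was 47.9%, and under those settings 38.9%, 39.8%, 59.8% and 37.0%. In RNA from whole testis, fewer cells of a type and less RNA per cell cannot be told apart here, and markers of the cell types are given further on.

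**Figure D1:**
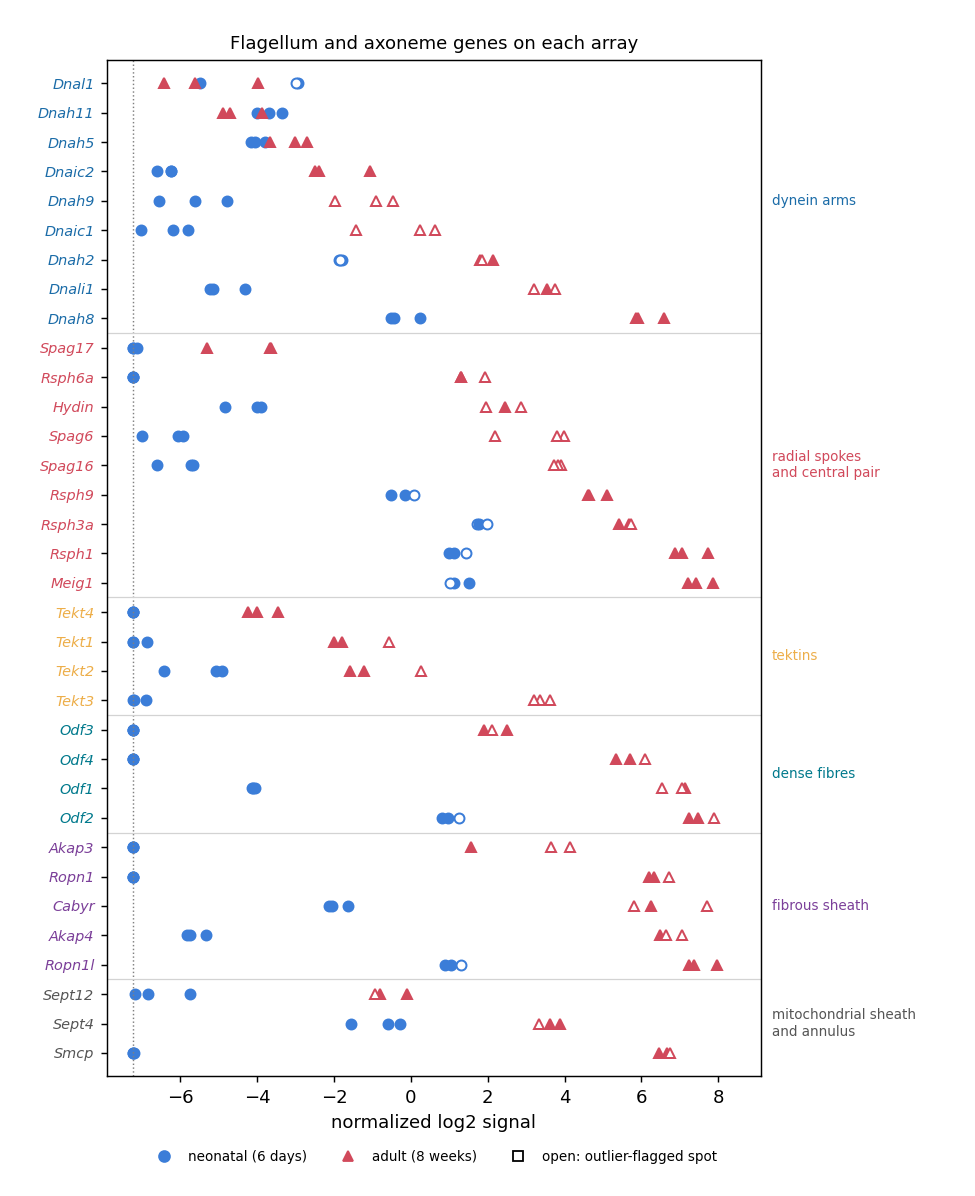
Normalized log2 signal of the 34 members on each array, with neonatal arrays as circles and adult arrays as triangles, open where the spot was outlier-flagged, and the dotted line at the floor of -7.22. Genes are grouped by structure and ordered by their adult mean within a group, and the 2 ages overlap for Dnal1 and Dnah11.

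Among the dynein arm genes, 9 of 13 had a probe, 6 were tested and 3 were called higher in adult testis. Dnah8 (NM_013811), a heavy chain of the outer arm in sperm, gave -0.53, -0.44 and 0.24 on neonatal arrays 1 to 3 and 5.92, 5.87 and 6.59 on adult arrays 1 to 3. The adult arrays lay far above the neonatal arrays, and replicate 3 was the highest of each age. Dnah8 rose by a log2 difference of 6.37 (SE 0.10, adjusted p = 8.79e-05, limma). For Dnaic2 (NM_001034878), an intermediate chain of the outer arm, the signals were -6.24, -6.23 and -6.61 on neonatal arrays 1 to 3 and -1.07, -2.49 and -2.39 on adult arrays 1 to 3. Adult replicate 1 was the highest, and the 2 ages did not overlap. Its log2 difference was 4.37 (SE 0.31, adjusted p = 0.00064, limma), and 2.92 with normexp. Dnah2 (NM_001081330), an inner arm heavy chain, rose by 3.81 (SE 0.16, adjusted p = 0.000633, limma), with replicate 3 left out because both of its spots were outlier-flagged, and lost its call by the methods' t-test after adjustment.

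The other 3 tested dynein genes were not called, since each had an adjusted p below 0.05 by limma but a fold change under 5. Dnah5 (NM_133365), an outer arm heavy chain of motile cilia, gave -4.16, -3.79 and -4.07 on neonatal arrays 1 to 3 and -3.67, -3.01 and -2.71 on adult arrays 1 to 3. The lowest adult array was just above the highest neonatal array. The log2 difference was 0.88 (SE 0.20, adjusted p = 0.0186, limma). Dnah11 (NM_010060), another outer arm heavy chain, gave -4.02, -3.70 and -3.35 on neonatal arrays 1 to 3 and -4.70, -4.89 and -3.88 on adult arrays 1 to 3. Adult replicate 3 lay inside the neonatal range, so the ages overlapped, and the adult array was the lower one in all 3 pairs. The log2 difference was -0.80 (SE 0.17, adjusted p = 0.0143, limma). For Dnal1 (NM_028821), a light chain of the outer arm, the signals were -2.94, -3.00 and -5.48 on neonatal arrays 1 to 3 and -3.98, -5.61 and -6.41 on adult arrays 1 to 3. Neonatal replicate 3 was far below the other neonatal arrays and within the adult range. Its log2 difference was -0.99 (SE 0.14, adjusted p = 0.00945, limma) from replicates 1 and 3, since the spot of neonatal replicate 2 was outlier-flagged, and -1.53 (SE 0.39, adjusted p = 0.0215, limma) with that spot kept. Relative to the median of all mRNA probes, the differences of Dnah5, Dnah11 and Dnal1 were 1.28, -0.40 and -0.59. After the normexp background correction, Dnah11 and Dnal1 stood at -0.28 and -0.24 relative to the median, and no scaling turned their sign. By the methods' t-test, the adjusted p of Dnah5, Dnah11 and Dnal1 was 0.115, 0.0946 and 0.0694. With no replicate block, limma gave Dnah11 and Dnal1 an adjusted p of 0.0705 and 0.395, and with normexp 0.077 and 0.507.

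For 3 more dynein genes a test was possible only with the outlier-flagged spots kept. Dnali1 (NM_175223), a light intermediate chain of the inner arm, gave -5.23, -4.31 and -5.14 on neonatal arrays 1 to 3 and 3.74, 3.55 and 3.20 on adult arrays 1 to 3. Every adult array was above every neonatal array by a wide margin, and the spots of adult replicates 1 and 3 were outlier-flagged. With these kept, the log2 difference was 8.39 (SE 0.25, adjusted p = 4.02e-05, limma). Dnaic1 (NM_175138), the other intermediate chain of the outer arm, gave -6.18, -5.79 and -7.03 on neonatal arrays 1 to 3 and 0.62, 0.25 and -1.42 on adult arrays 1 to 3 and was well above background on 2 of 3 neonatal arrays. The 2 ages were apart, with adult replicate 3 the lowest adult array, and all 3 adult spots were outlier-flagged. The log2 difference with them kept was 6.15 (SE 0.26, adjusted p = 0.0001, limma). Dnah9 (NM_001099633), an outer arm heavy chain, gave -5.63, -4.78 and -6.55 on neonatal arrays 1 to 3 and -1.98, -0.47 and -0.92 on adult arrays 1 to 3. Its ages did not overlap either, although the neonatal arrays spread widely and all 3 adult spots were outlier-flagged. With those spots kept it rose by 4.53 (SE 0.42, adjusted p = 0.00077, limma).

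Radial spoke and central pair genes had a probe for 9 of 10, and all 5 that could be tested were called higher in adult testis. Rsph6a (NM_031255), a spoke head protein, was not well above background on any neonatal array, and its signals were 1.3, 1.3 and 1.92 on adult arrays 1 to 3. It lay at the floor on all 3 neonatal arrays, and the spot of adult replicate 3 was outlier-flagged. The gene rose at least 344-fold with age (adjusted p = 0.000157, limma, 2 adult arrays). For such a lower bound, each neonatal array is taken at its lowest signal well above background. Where the probe's own value after flooring is higher, that value is taken instead. On neonatal replicates 2 and 3 the floor lies above that lowest signal, so a probe at the floor enters there at the floor. The adult mean is then set against these neonatal values. The bound holds for the background correction of the files: with normexp, which adds an offset of 50 to every signal and so shrinks differences of dim probes, Rsph6a differed by 5.98 in log2, less than the bound. An adjusted p given beside a bound tests the difference of the floored values and not the bound. Where all neonatal arrays are at the floor, the spread in that test comes from the adult arrays and from pooling over probes. The other probe of Rsph6a, for NM_001159671, rose at least 381-fold on 3 adult arrays (adjusted p = 9.28e-05, limma). Meig1 (NM_008579), which binds the central pair protein Spag16 and serves transport along the spermatid manchette, gave 1.12, 1.51 and 1.03 on neonatal arrays 1 to 3 and 7.21, 7.42 and 7.87 on adult arrays 1 to 3. It was already bright in neonatal testis, and every adult array was higher still. Meig1 rose by 6.01 (SE 0.15, adjusted p = 0.000258, limma) from replicates 1 and 2, since the spot of neonatal replicate 3 was outlier-flagged.

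Spag17 (NM_028892), a central pair protein, has only a lower bound. It was not well above background on any neonatal array, and the adult arrays gave -3.64, -3.67 and -5.31. Adult replicate 3 was well below the other adult arrays. The gene rose at least 7.41-fold with age (adjusted p = 0.00403, limma, 3 adult arrays). With the normexp background correction the log2 difference became 1.75, under 5-fold, and leaving out replicate 1 or replicate 2 also ended the call, at 2.69 and 2.70. The spoke proteins Rsph1 (NM_025290) and Rsph9 (NM_029338) rose by 5.90 (SE 0.16, adjusted p = 0.000311, limma) and 4.97 (SE 0.17, adjusted p = 0.000472, limma). In both, the spot of neonatal replicate 3 was outlier-flagged and the values come from replicates 1 and 2. Rsph9 lost its call by the methods' t-test after adjustment, as did Spag17.

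The remaining spoke and central pair genes were tested with outlier-flagged spots kept. Spag16 (NM_029160), a central pair protein, gave -5.71, -6.62 and -5.66 on neonatal arrays 1 to 3 and 3.91, 3.82 and 3.72 on adult arrays 1 to 3. The 3 adult arrays were nearly equal, and the ages were far apart. Spag16 rose by 9.81 (SE 0.25, adjusted p = 2.68e-05, limma), and 10.38 for its other probe, NM_025728, which was well above background on 1 of 3 neonatal arrays. Spag6 (NM_001001334), also of the central pair, gave -6.06, -5.92 and -7.00 on neonatal arrays 1 to 3 and 3.99, 3.79 and 2.19 on adult arrays 1 to 3. Replicate 3 was the lowest array of each age, and the ages did not overlap. Spag6 rose by 9.65 (SE 0.20, adjusted p = 1.81e-05, limma). Spag6l (NM_015773), a second gene that also carries the name Spag6 as a synonym, rose by 7.45 (SE 0.18, adjusted p = 0.000121, limma) with no spot left out. Hydin (NM_172916), a large protein of a central pair projection, gave -4.01, -3.90 and -4.83 on neonatal arrays 1 to 3 and 2.87, 2.44 and 1.96 on adult arrays 1 to 3. Replicate 3 was again the lowest of each age. Its log2 difference was 6.67 (SE 0.16, adjusted p = 2.33e-05, limma). For Rsph3a (NM_025789), a spoke stalk protein that binds protein kinase A, the signals were 1.72, 1.77 and 1.98 on neonatal arrays 1 to 3 and 5.41, 5.68 and 5.73 on adult arrays 1 to 3. The arrays of each age lay close together and the ages were apart. It rose by 3.78 (SE 0.12, adjusted p = 4.73e-05, limma), and its near copy Rsph3b rose by 3.78 (SE 0.15, adjusted p = 8.48e-05, limma). Whether each of these probes reads 1 of the copies alone was not tested.

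Tektins are filament proteins of the doublet microtubule wall, and 4 of 5 had a probe. All 3 that could be tested were called higher in adult testis. Tekt1 (NM_011569) gave -7.22, -6.87 and -7.22 on neonatal arrays 1 to 3 and -0.57, -1.80 and -2.00 on adult arrays 1 to 3, and 1 of 3 neonatal arrays was well above background. The adult arrays were all higher, with replicate 1 the highest. Tekt1 rose by 5.15 (SE 0.15, adjusted p = 0.000322, limma) from replicates 2 and 3, since the spot of adult replicate 1 was outlier-flagged. Neonatal replicate 3 was at the floor, and the log2 difference was 5.86 with no floor and 3.12 with normexp. Tekt2 (NM_011902) gave -5.07, -4.92 and -6.43 on neonatal arrays 1 to 3 and 0.28, -1.23 and -1.57 on adult arrays 1 to 3. The arrays of each age were spread out, but the ages did not overlap. Its log2 difference, for the same reason from replicates 2 and 3, was 4.27 (SE 0.36, adjusted p = 0.00273, limma), with 2.90 after normexp, and the call was lost with no filter on dim probes and by the methods' t-test. Tekt4 (NM_027951) lay at the floor on all 3 neonatal arrays and gave -3.46, -3.99 and -4.23 on the adult arrays. These were dim signals, yet all 3 adult arrays were well above background. The gene rose at least 9.42-fold with age (adjusted p = 0.000364, limma, 3 adult arrays), and the normexp background correction brought its log2 difference to 1.76, under 5-fold. Tekt3 (NM_027660) gave -7.22, -7.19 and -6.90 on neonatal arrays 1 to 3 and 3.62, 3.35 and 3.21 on adult arrays 1 to 3, with 2 of 3 neonatal arrays well above background. The adult arrays were close together and far above the neonatal arrays, of which replicate 1 was at the floor, and all adult spots were outlier-flagged. With these kept, it rose 1449-fold (log2 SE 0.18, adjusted p = 1.35e-05, limma). In all 4 tektins, adult replicate 3 was the lowest adult array.

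All 4 genes of the outer dense fibres had a probe, and the 3 that could be tested were called higher in adult testis. Odf4 (NM_145746) and Odf3 (NM_027019) were at the floor on all 3 neonatal arrays. On the adult arrays Odf4 gave 5.70, 5.34 and 6.10. Odf3 gave 2.50, 1.91 and 2.12 on them. The spot of adult replicate 3 was outlier-flagged for both genes, which have only a lower bound. Odf4 rose at least 6421-fold with age (adjusted p = 0.000138, limma, 2 adult arrays). Odf3 rose at least 645-fold (adjusted p = 0.000235, limma, 2 adult arrays). With normexp their log2 differences were 10.54 and 7.76, less than these bounds. Odf1 (NM_008757), a main dense fibre protein with a heat shock protein domain, gave -4.05, -4.14 and -4.11 on neonatal arrays 1 to 3 and 6.53, 7.15 and 7.04 on adult arrays 1 to 3. The neonatal arrays lay close together and were far below the adult arrays. With the outlier-flagged spots of adult replicates 1 and 3 kept, the log2 difference was 11.01 (SE 0.18, adjusted p = 1.28e-05, limma).

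Odf2, a dense fibre protein whose gene also serves the centrosome, had 3 probes that disagreed. Its brightest probe, NM_013615, gave 0.81, 0.98 and 1.25 on neonatal arrays 1 to 3 and 7.23, 7.46 and 7.90 on adult arrays 1 to 3. The neonatal signal was well above the floor and the adult arrays were all far higher. The log2 difference was 6.45 (SE 0.14, adjusted p = 0.000216, limma), and 6.21 (SE 0.14, adjusted p = 0.000234, limma) for the probe of NM_001113214, in both cases from replicates 1 and 2. The probe of NM_001113213 gave 2.12, 2.65 and 3.93 on the neonatal arrays and 3.38, 3.43 and 4.35 on the adult arrays. Neonatal replicate 3 was higher than adult replicates 1 and 2, so its ages overlapped. Its log2 difference was 1.02 (SE 0.20, adjusted p = 0.0193, limma) from replicates 1 and 2, and it was not called.

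The fibrous sheath genes had a probe for 5 of 6, and 2 could be tested by their main probe with outlier-flagged spots left out. Both were called higher in adult testis. Ropn1 (NM_030744), a ropporin that binds the anchoring proteins of the sheath, lay at the floor on all 3 neonatal arrays and gave 6.19, 6.34 and 6.71 on the adult arrays. It rose at least 10766-fold with age (adjusted p = 0.000125, limma, 2 adult arrays), with the outlier-flagged spot of adult replicate 3 left out, and by a log2 difference of 11.49 with normexp, less than the bound. Ropn1l (NM_145852), its relative, gave 0.90, 1.05 and 1.29 on neonatal arrays 1 to 3 and 7.23, 7.37 and 7.96 on adult arrays 1 to 3. This gene was bright at both ages and higher on every adult array. The log2 difference was 6.33 (SE 0.14, adjusted p = 0.00022, limma) without replicate 3, whose neonatal spot was outlier-flagged.

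Akap4 (NM_009651), the main anchoring protein of protein kinase A in the sheath and an X-linked gene, gave -5.75, -5.34 and -5.82 on neonatal arrays 1 to 3 and 6.49, 6.64 and 7.05 on adult arrays 1 to 3. The arrays of each age lay close together and the ages were far apart, and the spots of adult replicates 2 and 3 were outlier-flagged. With them kept, the log2 difference was 12.36 (SE 0.21, adjusted p = 1.32e-05, limma). Its other probe, NM_001042542, was at background on all 3 neonatal arrays. With flagged spots kept, this probe rose 1359.8-fold (adjusted p = 1.1e-05, limma, 3 adult arrays), and its bound equalled that value, so it gives no separate minimum. Akap3 (NM_009650), a partner of Akap4, was at the floor on all 3 neonatal arrays and gave 3.64, 4.13 and 1.58 on the adult arrays. Adult replicate 3 was far below the other adult arrays, whose spots were outlier-flagged. With these kept it was at least 1213-fold higher (adjusted p = 0.000169, limma, 3 adult arrays), and on adult replicate 3 alone at least 417-fold higher. Cabyr (NM_001042418), a calcium-binding sheath protein, gave -2.05, -1.62 and -2.13 on neonatal arrays 1 to 3 and 5.82, 6.24 and 7.72 on adult arrays 1 to 3. Adult replicate 3 stood above the other adult arrays for this probe, and its log2 difference with outlier-flagged spots kept was 8.53 (SE 0.47, adjusted p = 0.00018, limma). The other 4 probes of Cabyr were tested with flagged spots left out, and all 4 were called higher, with log2 differences between 7.90 and 8.05.

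The 3 genes of the mitochondrial sheath and annulus were all tested and all called higher in adult testis. Smcp (NM_008574), the cysteine-rich protein of the sperm mitochondrial capsule, gave -7.22, -7.22 and -7.20 on neonatal arrays 1 to 3 and 6.46, 6.67 and 6.74 on adult arrays 1 to 3. No neonatal array was well above background, and the adult arrays lay close together. It rose at least 13149.7-fold with age (adjusted p = 0.000126, limma, 2 adult arrays), the largest bound among the members. Normexp gave Smcp a log2 difference of 12.03, again less than the bound. Sept12 (NM_027669) and Sept4 (NM_011129) encode septins of the annulus, now named Septin12 and Septin4. Sept12 gave -6.83, -7.18 and -5.75 on neonatal arrays 1 to 3 and -0.11, -0.80 and -0.93 on adult arrays 1 to 3. Its log2 difference was 6.55 (SE 0.17, adjusted p = 0.00028, limma) without the outlier-flagged spot of adult replicate 3, and 5.97 with it. After normexp it was 4.87. Sept4 gave -0.60, -0.29 and -1.56 on neonatal arrays 1 to 3 and 3.63, 3.89 and 3.33 on adult arrays 1 to 3. The ages of both septins were apart on all arrays, and the log2 difference of Sept4 was 4.20 (SE 0.14, adjusted p = 0.000424, limma), also from replicates 1 and 2.

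**Figure D2:**
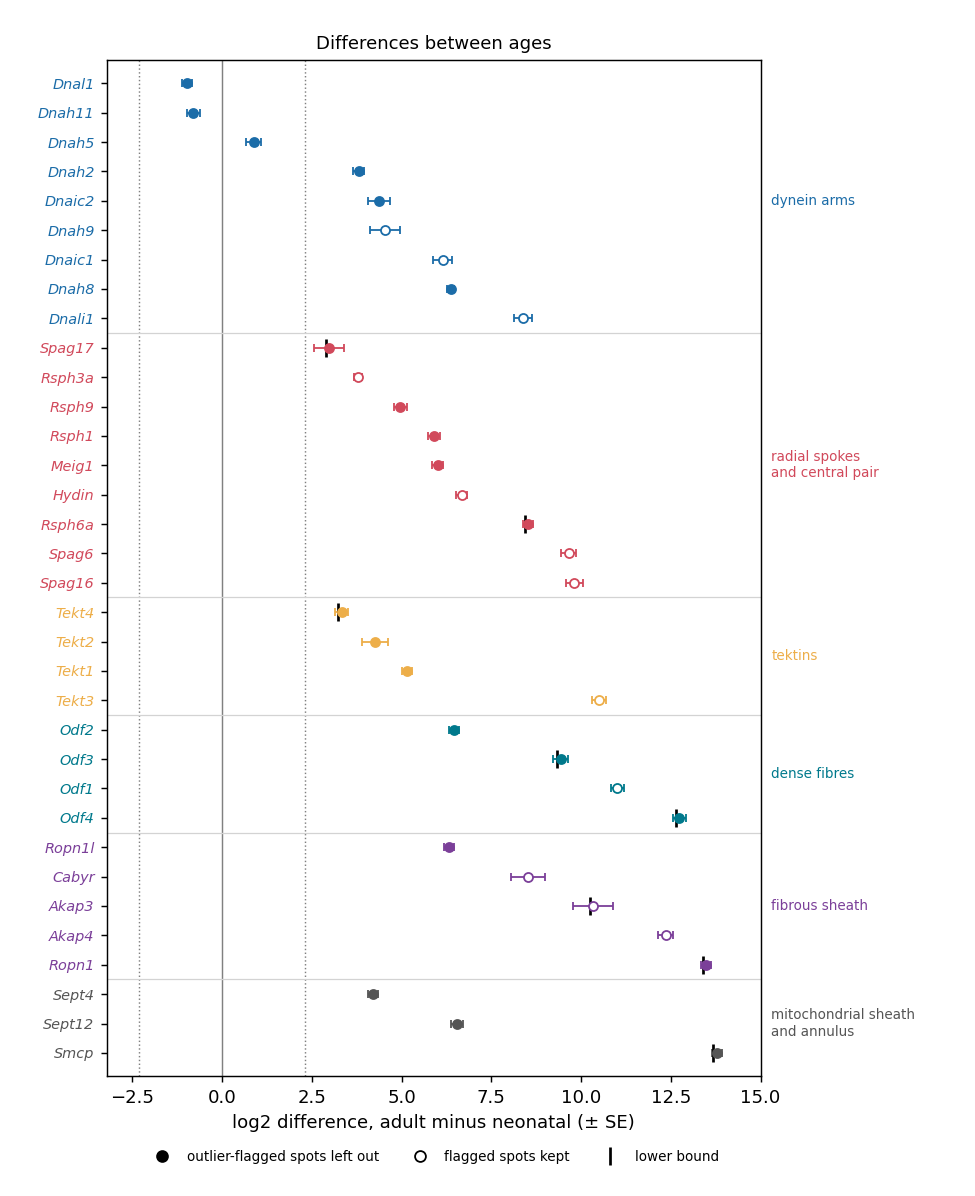
Log2 difference between adult and neonatal testis with its standard error for the 34 members, open where it was tested only with outlier-flagged spots kept, with a black bar at the lower bound where no neonatal array was well above background. Dotted lines mark a 5-fold change, and Dnal1, Dnah11 and Dnah5 lie between them.

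Related genes were set side by side by their difference in each pair of arrays, with all spots kept and no test, since levels of different probes are not comparable. In replicates 1 to 3, the differences were 6.45, 6.31 and 6.35 for Dnah8 and 0.49, 0.78 and 1.36 for Dnah5. They were 3.64, 4.31 and 5.63 for Dnah9 and -0.68, -1.19 and -0.53 for Dnah11. In both dynein pairs the ranges were apart, and the signs of Dnah9 and Dnah11 were opposite in all 3 replicates. In the fibrous sheath, Akap4 differed by 12.24, 11.98 and 12.87 and Akap3 by 10.86, 11.36 and 8.80, the latter measured from the floor, so that their order is not known. Ropn1 differed by 13.42, 13.56 and 13.93, with neonatal arrays at the floor, and Ropn1l by 6.33, 6.32 and 6.67. For the ropporins, the difference measured from the floor already exceeded that of Ropn1l in each replicate. The septins gave 6.72, 6.38 and 4.82 for Sept12 and 4.23, 4.18 and 4.89 for Sept4, which overlapped through replicate 3. Comparisons with Dnah17 and Rsph4a could not be made.

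**Figure D3:**
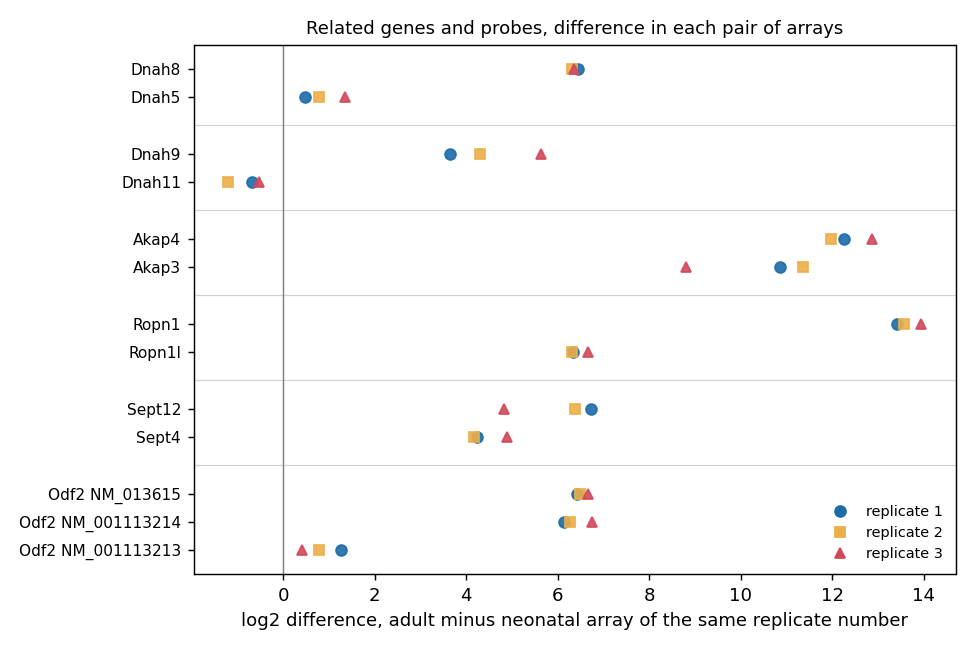
Log2 difference between the adult and the neonatal array of the same replicate number for related genes and for the 3 probes of Odf2, with outlier-flagged spots kept. Dnah11 is negative in all 3 pairs, and the Odf2 probe NM_001113213 stays between 0.41 and 1.27.

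Members also varied among arrays of 1 age. The SD over the 3 adult arrays had a median of 0.39 over the 34 members and ran from 0.09 for Spag16 to 1.36 for Akap3. Adult replicate 3 was the highest adult array for 15 members and the lowest for 14. It was the lowest for all 4 tektins and the highest for 4 of the 5 fibrous sheath genes. Of the 34 members, 28 had an outlier-flagged spot on some array, and 20 had one on adult replicate 3. Per the file headers, both arrays of replicate 3 were scanned at another time than the other 4. Within the scan of replicates 1 and 2, limma tested 19 members and called 17 higher. The scan of replicate 3 holds 1 pair and allows no test, and its difference was positive for 32 of 34 members and over 5-fold for 30. With the scan as a block in place of the replicate number, 19 of 22 members were called higher.

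Further axonemal genes, chosen as a list, moved in the same direction where they were called. Among other axoneme, assembly and dynein docking genes, 33 of 43 had a probe, 26 were tested and 19 were called higher in adult testis and 0 lower. The shares over all mRNA probes tested were 12.6% and 13.7%. In the axoneme list, among genes tested with flagged spots left out, the largest were the thioredoxin domain protein Nme8, with 9.21 (SE 0.15, adjusted p = 0.000155, limma), and the dynein-associated Wdr63, with 8.67 (SE 0.54, adjusted p = 0.0014, limma). With them kept, Tcte1 rose by 10.07 (SE 0.26, adjusted p = 2.81e-05, limma), with 1 of 3 neonatal arrays well above background. Its neonatal replicates 1 and 3 were at the floor, so the size of this difference depends on the floor. Among assembly and docking genes, Lrrc6, a cytoplasmic factor for building dynein arms, rose by 6.64 (SE 0.14, adjusted p = 9.78e-05, limma). Pih1d3, another such factor, was at least 68.4-fold higher (adjusted p = 0.000132, limma, 3 adult arrays). Nme7 had 2 probes that disagreed: its main probe rose by 3.00 (SE 0.14, adjusted p = 0.000851, limma), and its other probe, at background on all adult arrays, had a negative difference of at least 3.68-fold (adjusted p = 0.00107, limma) and was not called. Of 16 other sheath and fibre genes, 15 had a probe, 11 were tested and 5 were called higher and 0 lower. Cabs1, a calcium-binding protein of spermatids, rose by 13.17 (SE 0.15, adjusted p = 0.000126, limma), with 2 of 3 neonatal arrays well above background. The anchoring protein Akap14, likewise well above background on 2 of 3 neonatal arrays, rose by 9.13 (SE 0.26, adjusted p = 0.00032, limma). Neonatal replicate 1 was at the floor for this gene. Spata19, tested only with flagged spots kept, rose by 10.08 (SE 0.18, adjusted p = 1.44e-05, limma). For Nme8, Wdr63, the main probe of Nme7, Cabs1 and Akap14, replicate 3 was left out because of outlier-flagged spots.

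Other lists held proteins shared with other cells. Beside their counts, 12.6% of all mRNA probes tested were called higher and 13.7% lower. Among 11 other septins, 10 were tested, of which 3 were called higher and 2 lower in adult testis. Sept10 rose by 8.15 (SE 0.15, adjusted p = 0.000173, limma) on its main probe, while its other probe gave 0.17 and was not called. Sept14 rose by 3.05 (SE 0.12, adjusted p = 0.000176, limma). Sept11 and Sept8 had log2 differences of -5.03 (SE 0.17, adjusted p = 0.000438, limma) and -2.59 (SE 0.10, adjusted p = 0.000173, limma). Intraflagellar transport moves cargo along a growing axoneme, and of its 28 genes 22 were tested, 6 called higher and 0 lower. Kif17, a kinesin, rose at least 25.6-fold with age (adjusted p = 0.000188, limma, 3 adult arrays), and Ift122 rose by 2.93 (SE 0.15, adjusted p = 0.00102, limma). Of 20 genes for cytoplasmic dynein and dynactin, the motor of general transport in cells, 13 were tested, 1 was called higher and 1 lower. The light chain Dynlrb2 rose by 7.88 (SE 0.58, adjusted p = 0.000714, limma). The light intermediate chain Dync1li1 was dim on the adult arrays, none of them well above background, and fell at least 14.4-fold (adjusted p = 0.000425, limma, 2 neonatal arrays). Outlier-flagged spots removed replicate 3 from the values of Sept10, Sept11, Ift122 and Dync1li1. The median log2 difference was 1.29 over the tested transport genes and -0.26 over the cytoplasmic dynein genes, against -0.40 over all mRNA probes. The difference between lists was not tested.

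Of 12 regulators of cilium and spermatid genes, 11 were tested and 7 were called higher and 0 lower in adult testis. Over all mRNA probes tested, 12.6% were called higher and 13.7% lower. Fhl5, a partner of the activator Crem, gave -5.60, -5.93 and -4.87 on neonatal arrays 1 to 3 and 5.54, 5.59 and 6.21 on adult arrays 1 to 3. It was dim on all neonatal arrays and bright on all adult arrays, with a log2 difference of 11.25 (SE 0.14, adjusted p = 7.63e-05, limma). Rfx2, a factor that binds the X-box motif of ciliary genes, rose by 5.59 (SE 0.14, adjusted p = 0.000273, limma) without replicate 3. Crem had 11 probes, of which 10 were tested: 8 were called higher, with 3.75 (SE 0.16, adjusted p = 0.00072, limma) for the main probe, and 2 had negative differences and were not called. With flagged spots kept, Rfx4, at the floor on all 3 neonatal arrays, rose at least 316-fold (adjusted p = 2.14e-05, limma, 3 adult arrays).

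Markers of the cell types of the testis were read as well, and their part in the differences of the flagellum genes was not tested. Their summed signal is given in units of each array's 75th percentile, over the main probes of a list and with outlier-flagged spots kept. The largest term of a sum describes the sum only and does not rank genes, since probes differ. Beside the counts below, 12.6% of all mRNA probes tested were called higher and 13.7% lower. With flagged spots kept, these shares were 12.8% and 15.4%. For round and elongating spermatids, 7 of 7 genes had a probe, 6 were tested and 6 were called higher in adult testis, or 7 of 7 with flagged spots kept as in the sums. Their sum was 0.656, 0.697 and 0.784 on the neonatal arrays and 1066, 1242 and 1433 on the adult arrays, and the protamine Prm2 was the largest term of the adult sums. For spermatocytes, 7 of 7 genes had a probe, and 2 of 4 tested genes were called higher and 0 lower, or 4 and 0 of 7 with flagged spots kept. Dmc1 of this list had a negative log2 difference of -2.06 (SE 0.12, adjusted p = 0.000435, limma), with only 1 of 3 adult arrays well above background, and was not called. The sum was 16.6, 13.6 and 10.3 on the neonatal arrays and 74.3, 89.9 and 88.1 on the adult arrays, with Piwil1 the largest term in adult and Sycp1 in neonatal testis. Both sums were higher on every adult array than on any neonatal array. For spermatogonia, 6 of 6 genes had a probe, 1 of 3 tested genes was called lower and 0 higher, or 4 and 0 of 5 with flagged spots kept, and Gfra1 was at background on all 6 arrays. The sum was 87.3, 95.7 and 80.0 on the neonatal arrays and 18.0, 19.1 and 13.3 on the adult arrays, and Uchl1 was the largest term at both ages.

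Among markers of somatic cells, the sum for Sertoli cells, from 5 of 6 genes, was 44.2, 44.7 and 36.3 on the neonatal arrays and 13.4, 11.7 and 10.3 on the adult arrays, with Wt1 the largest term and 1 of 2 tested genes called lower, or 2 of 5 with flagged spots kept. For peritubular myoid cells, from 4 of 4 genes, it was 21.4, 21.6 and 26.7 on the neonatal arrays and 4.70, 4.26 and 6.48 on the adult arrays, with Myh11 the largest term, Cnn1 at background on all 6 arrays and 0 of 3 tested genes called. The endothelial sum, from 4 of 4 genes, was 7.63, 8.77 and 14.9 on the neonatal arrays and 2.12, 1.76 and 3.25 on the adult arrays, with Cdh5 the largest term and 2 of 4 tested genes called lower. The sums of these 3 lists were lower on all adult arrays than on any neonatal array. Macrophage markers, from 3 of 4 genes, summed to 2.97, 2.92 and 2.80 on the neonatal arrays and 1.88, 1.95 and 2.45 on the adult arrays, with Csf1r the largest term and 0 of 2 tested genes called. Leydig cell markers, from 5 of 5 genes, summed to 26.3, 28.2 and 25.2 on the neonatal arrays and 72.7, 56.3 and 54.1 on the adult arrays, with 0 of 3 tested genes called, Insl3 the largest term in adult and Hsd3b1 in neonatal testis. Insl3 was outlier-flagged on 5 of 6 arrays and, with these spots kept, was the 1 gene of 5 called, at 3.49 (SE 0.27, adjusted p = 0.000443, limma), while Hsd3b1 had a negative log2 difference of -1.04 (SE 0.15, adjusted p = 0.01, limma). Multiciliated epithelium, which lines the ducts next to the testis and shares axonemal genes, was represented by 6 of 7 genes. Of these, Mcidas, Sntn and Cdhr3 were at background on all 6 arrays. The sum was 0.492, 0.605 and 0.445 on the neonatal arrays and 2.16, 1.82 and 1.85 on the adult arrays, with Ccdc67 the largest term in adult and Ccno in neonatal testis. Ccdc67 was the 1 gene of 3 tested that was called higher, with 7.12 (SE 0.25, adjusted p = 0.000163, limma) and 1 of 3 neonatal arrays well above background. Its neonatal replicate 1 was at the floor.

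Promoter sequences, from 250 bases before to 50 bases after a gene start, were those of RefSeq on GRCm38.p6 and matched 36 of the 41 members, with 49 starts. They are shown because many members moved together and because regulators that bind such motifs were among the genes called. Each motif was searched on both strands. The X-box core GTTNCCATG was in 2 of 49 member promoters (4.08%) and in 1.93% of all 32851 promoters. The shorter RFX motif GTTGCC was in 12 of 49 (24.5%) and in 12.5% of all promoters. The full cyclic AMP response element TGACGTCA was in 1 of 49 (2.04%) and 1.79% of all, and its shorter form TGACGT, which every full element also holds, in 4 of 49 (8.16%) and 7.51% of all. A match describes letters in a window and not binding. The windows with an X-box core are given on the strand of the gene, with the match in capitals, for Dnah5, which was not called, and Dnali1, which was called with its outlier-flagged spots kept.
Dnah5, chr15:28203688-28203717, plus strand: aacggcacagCATGGAAACagtattaccct
Dnali1, chr4:125065646-125065675, minus strand: gagaggagggGTTTCCATGgtgatcgcaaa
The match began 68 bases before the gene start in Dnah5 and 8 bases before it in Dnali1.

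The shorter RFX motif was held by 10 of the 36 members with a promoter sequence (27.8%) and by 14.1% of all 27025 genes. The 10 members were Dnaic2, Spag6, Spag16, Hydin, Tekt1, Tekt2, Tekt4, Odf3, Ropn1l and Sept4. All 10 were called higher in adult testis, Spag6, Spag16 and Hydin with outlier-flagged spots kept, as were 31 of the 34 members with a probe. Windows are shown for 5 of them from central pair, tektin and sheath genes, with the match in capitals.
Spag6, chr2:18698973-18699002, plus strand: cgattccgactgGTTGCCcaggagtgtggg
Hydin, chr8:110266952-110266981, plus strand: tgcggttgctgtGGCAACagatggtaacaa
Tekt1, chr11:72361880-72361909, minus strand: tgcgtccgtccgGTTGCCatagagaccgca
Tekt2, chr4:126325767-126325796, minus strand: cgcagctgcgcgGTTGCCtggctaagctga
Ropn1l, chr15:31453692-31453721, minus strand: tgcgcagctcggGTTGCCtggagaccgcac
The capitals read GTTGCC on the strand of the gene, or GGCAAC where the motif lies on the other strand.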

How the data were processed

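RNA of 3 neonatal and 3 adult replicates was read on 1 array each, with Agilent Feature Extraction 10.5.1.1 according to the submitters' notes. The authors deposited a processed spot intensity for each probe in the array files and normalized log2 values in the series table. The spot intensities were used here: spots of a probe were averaged, divided by the 75th percentile over non-control probes of the array, floored and put on a log2 scale. Outlier-flagged spots were left out, and they made up 6.11% to 30.7% of the spots of an array, most on replicate 3. Of the spots, 65.9% to 69.8% per array were well above background and 0 were saturated, and the lowest signal well above background was 6.09 to 24.0.

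Of 22464 mRNA probes, 21905 were matched to a gene by their RefSeq accession. Ages were compared with limma 3.58.1 in R 4.3.3 (prior degrees of freedom 2.07), blocking on the replicate number (the published test was a paired one), and p-values were adjusted over 24517 probes. Python 3.11.15 was used for the other steps. Deviations from the age mean correlated between neonatal and adult arrays of the same number (0.341, 0.248 and 0.587 for replicates 1 to 3). For replicates 1 and 2, this was about as much as between other numbers of their scan (0.286 and 0.323). The scan of replicate 3 holds no other number to compare with. Correlations across scans were negative. Alternatives tried were outlier-flagged spots kept, no floor, quantile or median scaling, normexp background correction (on median spot signals, since no mean signal column was given), other filters, blocks, thresholds and tests, and the values of the authors.

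Named were all members. By rule, array values were given for members not called or not tested and for the related genes. They were also given for the 2 largest and the smallest tested difference per structural group. From each other list, apart from the cell type markers, the 2 largest called differences in each direction were named. Spag6l, Rsph3b, Nme7, Crem, Ccdc67, Dmc1, Hsd3b1, Tcte1, Spata19 and Rfx4 were named after their values were seen. The members and lists were chosen with earlier results of these data known. Protein sequences were not used here.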

Additional observations from a re-analysis of the deposited data

How the results depend on the processing

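Of 354 combinations of a member's log2 difference and an alternative, 344 kept their direction and their side of the threshold, 10 lost the call and 0 reversed. Many of these outcomes were fixed in advance. Alternatives that changed only the test, the filter, the prior variance or the fold threshold left the log2 difference as it was and could not reverse it. The 2-fold threshold also could not end a call. Spag17 lost the call after the normexp background correction (1.75), by the methods' t-test after adjustment (2.98), and without replicate 1 or 2 (2.69 and 2.70). Tekt4 lost it after the normexp correction (1.76). Tekt2 lost it with no filter on dim probes and by the methods' t-test with and without adjustment, and Dnah2 and Rsph9 by that test after adjustment, with unchanged log2 differences of 4.27, 3.81 and 4.97. The cause was not tested.

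The number of members called higher was 19 of 22. It was 31 of 34 with outlier-flagged spots kept and 31 of 34 on the log2 values of the authors, where more members could be tested. Other settings with all replicates gave 15 to 19, and leaving out a replicate gave 3 to 17. Without replicate 1 or 2, only 8 or 7 members had the 2 pairs of arrays that a test needs. The number called lower was 0 under every alternative.

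The median log2 difference of the members was 5.52. It was 6.33 with outlier-flagged spots kept, 5.88 with no floor, 5.73 after quantile normalization, 5.34 with a shift to the median, 4.94 after the normexp correction and 6.07 on the values of the authors. With no replicate block (arrays not paired) it was 5.67, and without a replicate 2.70 to 6.01. The cause was not tested.

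The axoneme, assembly and docking genes called higher numbered 19 of 26, 25 of 32 with outlier-flagged spots kept, and 4 to 19 without a replicate. Without replicate 1 or 2, only 8 of these genes could be tested. The intraflagellar transport genes called higher numbered 6 of 22, with 8 of 27 when flagged spots were kept and 3 by the methods' t-test after adjustment. The count was 16 at a threshold of 2-fold, and 1 to 6 without a replicate. Without replicate 1 or 2, only 6 transport genes could be tested. For cytoplasmic dynein and dynactin it was 1, and 2 at a threshold of 2-fold. Lower thresholds admit more genes by construction.

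Several limits remain. Each age has 3 replicates, and the replicate number goes with the scan. Replicate 3 carries most outlier-flagged spots, so many members rest on 2 pairs or on spots kept. For 8 members no neonatal array was well above background, and their differences depend on the floor and the background correction, so bounds are given. Other dim members also depend on the background correction, with Dnaic2 at 2.92, Tekt2 at 2.90 and Sept12 at 4.87 after normexp. The 12 members tested only with outlier-flagged spots kept were not run under the other settings, except on the values of the authors. Whether probes of near copies read both genes was not tested, and 7 members had no probe. RNA came from whole testis, and cell numbers were not measured.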
